A study of Mus musculus with 6 samples.

Results

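The mitochondrial ribosomal protein genes were taken as every gene whose symbol in the platform annotation begins with Mrpl or Mrps followed by a digit, read from probe sets that name 1 gene alone. The rule found 76 genes with 156 probe sets, of 18193 genes and 45037 probe sets on the array. Of these, 74 genes and 113 probe sets were expressed, meaning an average log2 intensity over the 6 arrays (A) above 5. A single member, Mrps6, lies in the trisomic region, and 73 of the 74 expressed members are disomic. The comparison asked whether the gene present in 3 copies departed from the genes that encode the rest of the same particle.

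RNA came from neurospheres, floating colonies grown from neural stem and progenitor cells of the wall of the lateral ventricle, after 7 days in culture. Each genotype had 3 arrays, labelled as biological replicates. Every mouse was female and 84 days old. The disomic group was C57BL/6 littermates with the normal chromosome number. The Ts1Cje group was bred on the C57BL/6 background and carries 3 copies of chromosome 16 from Sod1 to the telomere, the extra one translocated onto the distal end of chromosome 12, with the extra Sod1 copy not functional. The extra copy is present in every cell of the mouse, so a culture cannot show which cell type it acts in, and labels do not say whether a culture came from 1 mouse or several. The neural stem and progenitor markers with a probe set were expressed in 7 of 7 cases, among them Sox2, Nes and Fabp7, with a mean log2 level of 11.90 to 12.17 in disomic and 12.05 to 12.08 in Ts1Cje arrays. Of the microglial, vascular and ependymal markers 0 were expressed, of the neuronal ones 1 of 6 (Gad1), and of the oligodendrocyte ones 2 of 4 (Mbp and Sox10).

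Mitochondria keep their own ribosome, which reads the few messages of the mitochondrial genome and makes core subunits of the respiratory chain and ATP synthase. Its ribosomal RNAs are made inside the organelle, whereas its proteins are encoded in the nucleus, made in the cytoplasm and imported. Mrps proteins mostly build the small subunit, which holds the mRNA, and Mrpl proteins the large subunit, which forms the peptide bond. Some are homologues of bacterial ribosomal proteins and others occur only in mitochondria. In the structures of the particle, the products of Mrps30 and Mrps18a sit in the large subunit despite their names, and Mrps36 is now counted as a part of a metabolic enzyme complex.

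Mrps6, the homologue of bacterial protein S6 at the platform of the small subunit, lies on chr16:92058336-92112227 of GRCm38.p6. Its RefSeq start is 14 bases from that of Slc5a3, the sodium and myo-inositol cotransporter, on the same strand, and the bodies of both genes overlap. The sequence in front of Mrps6 is shown because both trisomic genes start in it. It spans chr16:92058086-92058336 on the plus strand, credited to RefSeq, and capitals run from the start base of Slc5a3 to that of Mrps6.
Mrps6 and Slc5a3: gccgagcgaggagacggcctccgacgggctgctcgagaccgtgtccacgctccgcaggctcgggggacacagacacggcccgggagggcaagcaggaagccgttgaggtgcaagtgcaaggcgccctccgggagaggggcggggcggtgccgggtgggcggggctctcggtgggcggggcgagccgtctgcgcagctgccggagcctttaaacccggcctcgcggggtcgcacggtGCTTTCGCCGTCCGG

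Mrps6 was higher in the Ts1Cje neurospheres. On the brighter of its 2 probe sets the log2 intensity was 11.75, 11.31 and 11.33 in the disomic arrays and 12.23, 12.13 and 12.66 in the Ts1Cje arrays. All 3 Ts1Cje arrays lay above all 3 disomic arrays, and Ts1Cje replicate 3 was the highest. The means were 11.46 ± 0.25 and 12.34 ± 0.28 (SD, n = 3 each). The log2 fold change of Ts1Cje over disomic (M) was 0.88 with a standard error of 0.21 and a 95% confidence interval of 0.32 to 1.44, a fold change of 1.84. The moderated t of limma was 4.22, past the level of 4 that the study used to select probes, with an unadjusted p of 0.0113 and an adjusted p of 1 over all probe sets. With 1 array left out it fell below 4 in 4 of 6 cases, to 3.23 without disomic replicate 2, 3.21 without disomic replicate 3, 3.62 without Ts1Cje replicate 1 and 3.97 without Ts1Cje replicate 3, while M stayed between 0.72 and 1.02.

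The dimmer Mrps6 probe set read 9.26, 8.70 and 9.09 in the disomic arrays and 9.47, 9.41 and 9.94 in the Ts1Cje arrays. Again the groups did not overlap, with the lowest Ts1Cje array above the highest disomic one. Its M of 0.58 (standard error 0.23, 95% interval -0.02 to 1.19) equals a fold change of 1.5, and its moderated t of 2.60 did not pass 4. A gene in 3 copies that is expressed in proportion to its dose has a fold of 1.5, an M of 0.58, which lies within the interval of both probe sets. The brighter probe set belongs to a type that can also match transcripts of related sequence. Which probe set is nearer to the true change of Mrps6 was not tested.

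Mrps6 lay further above its ribosomal partners in every Ts1Cje array than in any disomic array. The departure was taken per array as the log2 level of Mrps6 minus the mean log2 level of the 28 disomic genes named Mrps, and its change between genotypes is the quantity of interest, since probe sets differ in brightness. The 28 were taken by name and include Mrps30, Mrps18a and Mrps36, which are placed outside the small subunit above. The departure was 2.95, 2.59 and 2.61 in the disomic arrays and 3.47, 3.40 and 3.64 in the Ts1Cje arrays. The groups did not overlap, and the spread within each (SD 0.20 and 0.12) was smaller than the difference of 0.79 between their means. An exact two-sided permutation test over the arrays gave p = 0.1, the smallest value that 3 against 3 arrays can reach. With the dimmer probe set the difference was 0.49, with the same exact permutation p of 0.1.

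**Figure D1:**
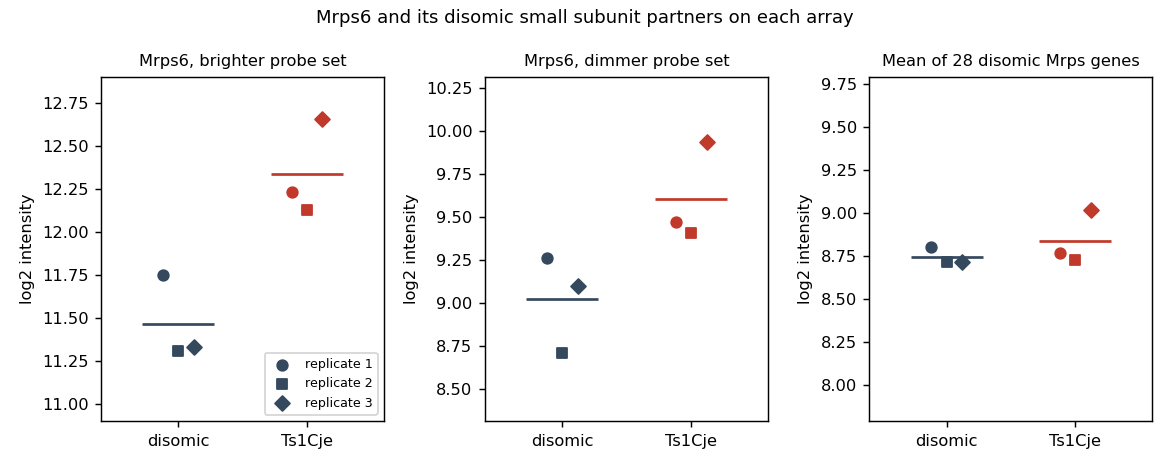
The log2 intensity of both Mrps6 probe sets and the mean log2 intensity of the 28 disomic Mrps genes on each of the 6 arrays, with the replicate number as the symbol and group means as lines. All panels span the same number of log2 units. Both Mrps6 panels separate the genotypes, whereas in the partner mean only Ts1Cje replicate 3 lies above the disomic arrays.

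Among the 74 expressed members Mrps6 had the highest M, and it ranked 23 among 8947 expressed genes, so that 0.257% of them had an M at or above it. Within the trisomic region it ranked 2 of 44 expressed genes, whose median M was 0.53. These ranks rest on the brighter probe set. By the dimmer one Mrps6 still ranked 1 of the 74 members, but 16 of the 44 trisomic genes and 150 of all expressed genes (1.68% at or above it). Its listed neighbours in the region had an M above 0 in 7 of 7 expressed cases, with a median M of 0.46. Of the 43 expressed trisomic genes other than Mrps6, which include these neighbours, 42 had an M above 0, beside 53.9% of all expressed genes. Cryzl1, a quinone oxidoreductase-like gene, had an M of 0.65 (moderated t 6.20) and Rcan1, an inhibitor of calcineurin, an M of 0.78 (moderated t 5.31). These were the only neighbours past a moderated t of 4. So were 14 of the 43 trisomic genes, beside 1.13% of all expressed genes.

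Slc5a3, which starts beside Mrps6, read 12.19, 11.67 and 11.43 in the disomic arrays and 12.33, 12.16 and 12.17 in the Ts1Cje arrays. Disomic replicate 1 exceeded 2 Ts1Cje arrays, so the groups overlapped, and M was 0.46 with a standard error of 0.22. Itsn1, an endocytic scaffold protein, had an M of 0.41 (moderated t 3.38), Son, an RNA splicing factor, 0.54 and Atp5o, a subunit of the ATP synthase stalk, 0.44, each with every Ts1Cje array above every disomic one. Donson, a replication fork protein, had an M of 0.15 with overlapping groups. Of the 7 expressed neighbours 5 had every Ts1Cje array above every disomic one. The same held for 26 of the 43 trisomic genes other than Mrps6 and for 6.12% of all expressed genes. The potassium channel subunits Kcne1 and Kcne2 were not expressed.

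With all 6 arrays and the brightest probe set of each gene, 0 of the 73 disomic members passed a moderated t of 4 in either direction. Their M ran from -0.27 to 0.38, a median of 0.09 (fold change 1.06) beside a median of 0.02 over all expressed genes. A moderated t above 4 was found for 1 of the 74 expressed members, Mrps6, beside 1.13% of all expressed genes, and one below -4 for 0 members, beside 0.693%. By limma's adjusted p, 0 members were called in either direction, beside 0.0112% of all expressed genes higher and 0% lower. An unadjusted p under 0.05 was found for Mrps6 and for 0 of the 73 disomic members, where 3.73% of all expressed genes were higher and 2.87% lower at that level.

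The 95% interval of M held 0 for 73 of 73 disomic members. In 49 of 73 the whole interval lay below 0.58, the value of a rise by 1.5 times, and in 46 it also lay above the value of a fall by 1.5 times. In the others the interval held a change of that size. The median standard error was 0.15. Over the members, 54 of 74 had an M above 0, beside 53.9% of all expressed genes. Genes in which every Ts1Cje array was above every disomic one numbered 2 of 74, Mrps6 and Mrps30, beside 6.12% of all expressed genes, and 1 of 74, Mrpl18, had every Ts1Cje array below, beside 5.16%.

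**Figure D2:**
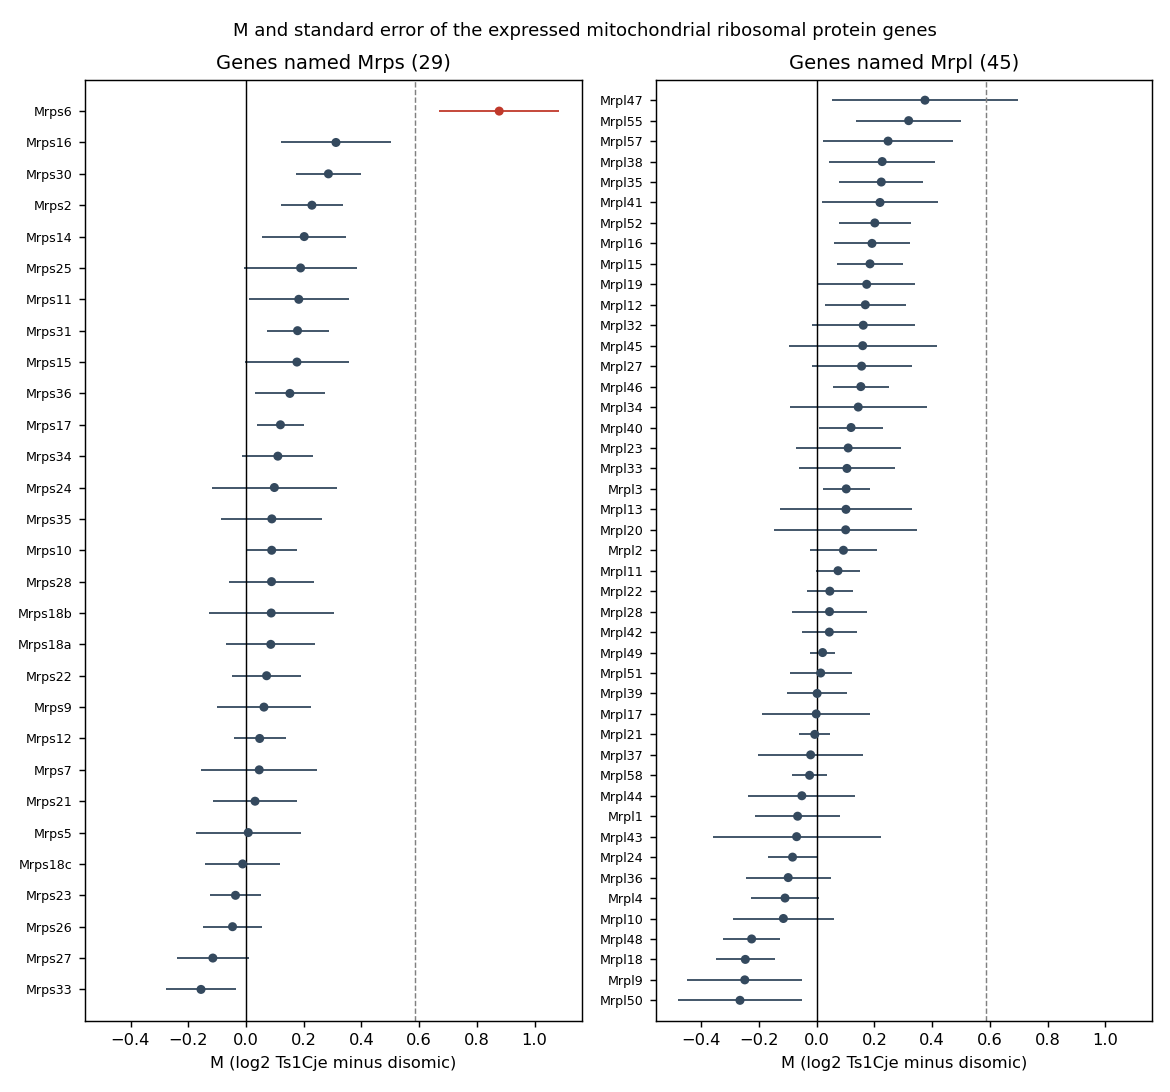
M (log2 Ts1Cje minus disomic) of each expressed mitochondrial ribosomal protein gene as a point, with its limma standard error as a bar, for 29 genes named Mrps and 45 named Mrpl, ordered by M. The dashed line is the M of a 1.5-fold change. Mrps6, in red, lies at 0.88 and every other gene between -0.27 and 0.38.

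By name, the 28 disomic Mrps genes, Mrps30, Mrps18a and Mrps36 included, had a median M of 0.09, with 23 above and 5 below 0. The 45 Mrpl genes had a median of 0.09, with 30 above and 15 below. Split by where the protein sits and its descent, the 15 disomic homologues of bacterial small subunit proteins had a median M of 0.09 with 14 above 0, and the 10 small subunit proteins found only in mitochondria a median of 0.08 with 6 above 0. The 27 homologues of bacterial large subunit proteins had a median of 0.10 with 18 above 0, and the 20 large subunit proteins found only in mitochondria a median of 0.06 with 14 above 0. None of these classes had a gene past a moderated t of 4 in either direction, and differences between classes were not tested. Of all expressed genes 53.9% had an M above 0. The mean deviation of the 15 small subunit homologues from their own mean over the 6 arrays was -0.04, -0.10 and -0.02 in the disomic arrays. It was -0.06 and -0.05 in Ts1Cje replicates 1 and 2, within the disomic range, and 0.27 in Ts1Cje replicate 3.

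In the small subunit, S18 is the protein that pairs with S6 in the bacterial ribosome. Its closest mitochondrial homologue, Mrps18c, read 9.82, 10.07 and 9.97 in the disomic arrays and 9.74, 9.94 and 10.14 in the Ts1Cje arrays. The groups overlapped across their whole range, and M was -0.01 (standard error 0.13, 95% interval -0.36 to 0.34), so that the interval excluded a rise by 1.5 times. Mrps18b, a relative of S18 at another site of the small subunit, had an M of 0.09 with a standard error of 0.22.

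Mrps2, the homologue of bacterial S2 on the back of the small subunit, read 10.84, 10.63 and 10.51 in disomic and 10.90, 10.78 and 10.98 in Ts1Cje arrays. Disomic replicate 1 exceeded Ts1Cje replicate 2, so the groups overlapped, and M was 0.23 with a moderated t of 2.15. Mrps16, the homologue of bacterial S16, read 8.62, 8.33 and 8.50 against 8.63, 8.60 and 9.15. Its M of 0.31 rested mostly on Ts1Cje replicate 3, and its moderated t was 1.65. Mrps31, a protein found only in mitochondria, had an M of 0.18 with a moderated t of 1.66, and Mrps33, likewise, an M of -0.16 with a moderated t of -1.29.

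In the large subunit, Mrps30 had the highest moderated t of the disomic members, each read from its brightest probe set. It read 7.92, 7.67 and 7.57 in disomic and 7.98, 7.93 and 8.12 in Ts1Cje arrays. The groups did not overlap, by a gap between disomic replicate 1 and Ts1Cje replicate 2 that was small beside the disomic SD of 0.18. M was 0.29 (standard error 0.11, moderated t 2.52, unadjusted p 0.0609 in limma). Mrpl47, the homologue of bacterial L29 near the exit of the peptide tunnel, had the highest disomic M, 0.38 with a standard error of 0.32. It read 5.95, 5.84 and 6.10 against 6.11, 5.93 and 6.98, so that 1 Ts1Cje array stood well above the other 5. Mrpl55, found only in mitochondria, had an M of 0.32 with a moderated t of 1.75.

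At the other end, Mrpl18, the homologue of the bacterial protein L18 that binds 5S ribosomal RNA, read 10.73, 10.79 and 10.72 in disomic and 10.66, 10.31 and 10.53 in Ts1Cje arrays. Every Ts1Cje array was below every disomic one, with an M of -0.25 and a moderated t of -2.43. Mrpl48, found only in mitochondria, read 9.68, 9.67 and 9.55 against 9.24, 9.56 and 9.42. The highest Ts1Cje array was above the lowest disomic one, and M was -0.23 with a moderated t of -2.28. Mrpl50, also mitochondrial only, had the lowest M, -0.27 with a standard error of 0.21, Mrpl9, the homologue of bacterial L9, an M of -0.25 and Mrpl24, the homologue of bacterial L24, an M of -0.08, all with overlapping groups.

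Chromosome 16 carries 2 further members outside the trisomic region. Mrpl39 lies on chr16:84718281-84735244, on the centromeric side of Sod1, and its M was 0.00 with a 95% interval of -0.28 to 0.28. Mrpl40 lies on chr16:18872018-18876637, with an M of 0.12 and a standard error of 0.11. Both intervals lay below 0.58, and both held 0.

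Probe sets of a gene did not always agree. Of the 76 genes 34 had 1 probe set and 42 had several, up to 8. Of the 25 genes with several expressed probe sets, 10 had values of M of opposite sign, and the median range of M within a gene was 0.19, wider than the members' median M of 0.09. Over all probe sets, 77 of the 113 expressed probe sets had an M above 0. The widest spread within a gene was in Mrpl44, an RNase III-like protein of the large subunit, from -0.20 to 0.26, and in Mrps14, a homologue of bacterial S14, from -0.10 to 0.33. The probe set of Mrps14 at 0.33, not its brightest, was the only one of the 111 expressed disomic probe sets whose 95% interval left out 0 (0.08 to 0.57), with an unadjusted p of 0.0203 and an adjusted p of 1 in limma, and every Ts1Cje array above every disomic one. The brightest Mrps14 probe set had an M of 0.20, with overlapping groups. Of the 113 expressed probe sets 1 passed a moderated t of 4, the brighter one of Mrps6, and 0 passed -4. Counted by gene, 1.13% of all expressed genes passed 4 and 0.693% passed -4. At an unadjusted limma p under 0.05, 3.73% were higher. Shares over all expressed probe sets are not given here. Mrpl54 (A of 4.45) and Mrpl14 (A of 3.23) had no expressed probe set and are left out of the counts.

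**Figure D3:**
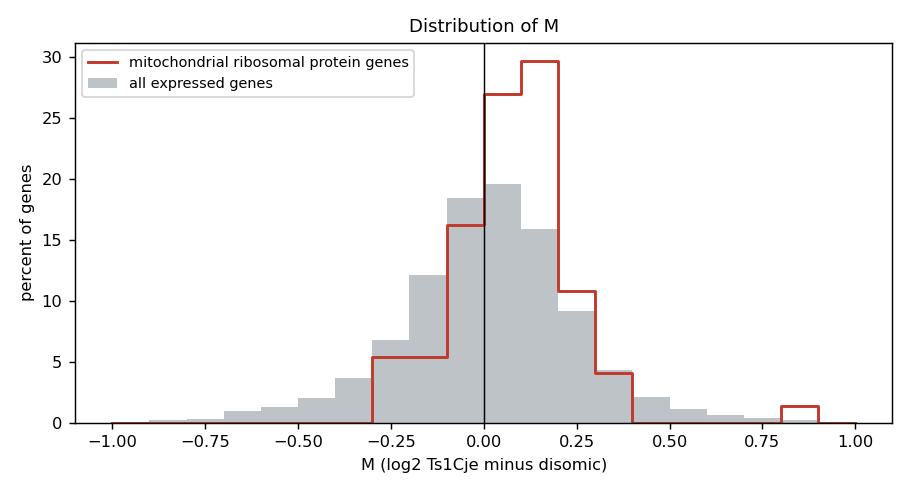
Distribution of M (log2 Ts1Cje minus disomic) as the percent of genes in bins of 0.1, for the 74 expressed mitochondrial ribosomal protein genes (red line) and all 8947 expressed genes (grey), of which 33 lie beyond the axis. The members other than Mrps6 lie between -0.27 and 0.38, and Mrps6 stands apart from them at 0.88.

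The positive lean of the disomic members rested on 1 array. The mean deviation of the 73 disomic members from their own mean over the 6 arrays was 0.02, -0.07 and -0.06 (log2) in the disomic arrays and -0.05, -0.06 and 0.22 in the Ts1Cje arrays. Ts1Cje replicates 1 and 2 thus lay within the range of the disomic arrays, and Ts1Cje replicate 3 above all others. It was the highest of the 6 arrays for 52 of the 73 members (71.2%), beside 23.0% of all expressed genes. Without it the median M of the expressed members was -0.01, and 34 of 74 had an M above 0. Mrps6 kept an M of 0.72 without that array, and its departure from the 28 partners a difference of 0.72.

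Both subunits shared this array. In Ts1Cje replicate 3 the 28 disomic Mrps genes deviated by 0.23 and the 45 Mrpl genes by 0.22 on average. Genes of the respiratory chain were highest on it too. The 32 disomic genes of respiratory complex I, taken by symbol, deviated by 0.30, and the 47 of complexes II to V by 0.23. All expressed genes deviated by 0.02. The 42 cytoplasmic ribosomal proteins deviated by 0.16 and were also highest on this array, beside 0.09 in disomic replicate 3. The 17 assembly factors deviated by 0.13 on this array, also their highest. It was not the highest array for the 9 translation factors (0.03 against 0.17 in disomic replicate 1), the 13 mitochondrial tRNA synthetases (0.08 against 0.18 in disomic replicate 1), the 9 genes of mitochondrial transcription and mRNA (0.117 against 0.127 in Ts1Cje replicate 1) or the 8 nuclear regulators (0.0728 against 0.0842 in disomic replicate 3). Over all arrays, M had a median of 0.16 in complex I (28 of 32 above 0) and 0.14 in complexes II to V (39 of 47 above 0), with 0 and 2 genes above a moderated t of 4, beside 1.13% of all expressed genes, and 0 below -4. The cytoplasmic ribosomal proteins had a median of 0.01 (22 of 42 above 0), with 0 genes above 4 and 1 below -4, beside 0.693% of all expressed genes.

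On controls of the RNA the genotypes differed, and Ts1Cje replicate 3 stood apart on 1 of them. The log2 difference of the 3′ from the 5′ actin control, which grows as RNA is shortened, was 1.53 to 1.83 in disomic and 1.87 to 2.26 in Ts1Cje arrays, and the 2.26 belonged to Ts1Cje replicate 3. The same measure for Gapdh was 2.09 to 2.28 in disomic and 2.29 to 2.44 in Ts1Cje arrays, and Ts1Cje replicate 3, at 2.29, was the lowest Ts1Cje array. The 18S control was 10.24 to 11.74 in disomic and 11.97 to 12.36 in Ts1Cje arrays, with Ts1Cje replicate 3 at 12.33. Every Ts1Cje array was thus above every disomic one on all 3. The part of these controls in the members' values was not tested. The 9 expressed proliferation genes of the list used here had a median M of -0.64, with all 9 below 0. Of these 1, Mcm7, a subunit of the replicative helicase, was below a moderated t of -4, beside 0.693% of all expressed genes. Mcm7, Aurka, Prim1 and Ccna2 of this list were reported by the paper as lower in these same arrays. Their direction was thus known beforehand. In these bulk cultures, fewer cells of a type and less RNA per cell cannot be told apart.

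**Figure D4:**
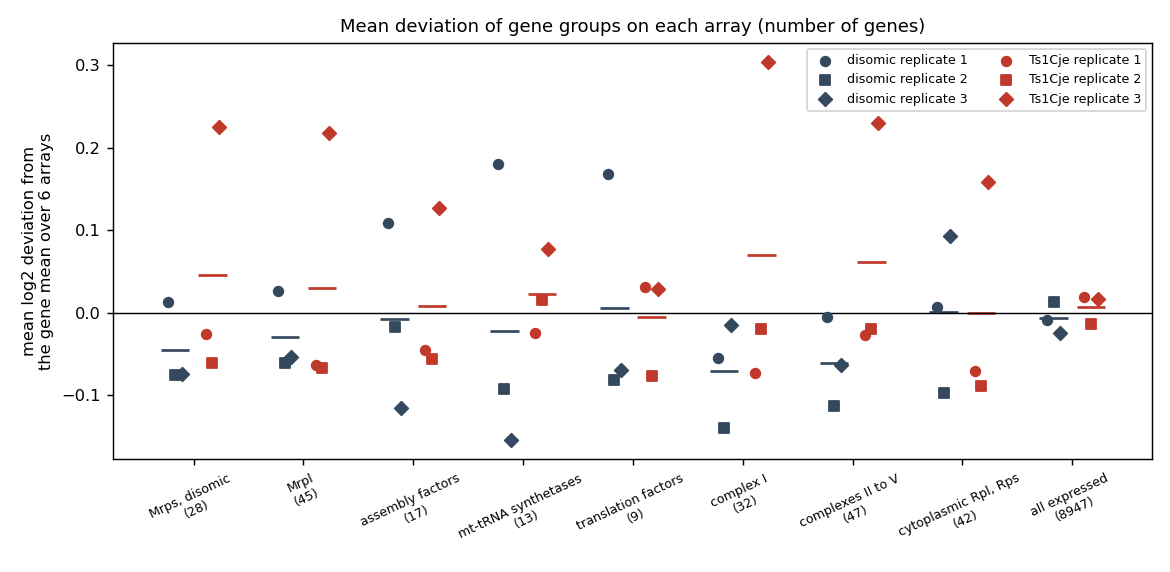
Mean log2 deviation of the genes of each group from their own mean over the 6 arrays, with disomic arrays in blue, Ts1Cje arrays in red, the replicate number as the symbol and group means as lines. Ts1Cje replicate 3 lies at 0.23 for the disomic Mrps genes, 0.22 for the Mrpl genes and 0.30 for complex I, above the other 5 arrays, while all expressed genes stay between -0.02 and 0.02.

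The rest of the mitochondrial translation system was read from lists by role. They held 17 expressed assembly factors, 4 particle proteins of other names, 9 translation factors, 13 tRNA synthetases and 9 genes of transcription and mRNA. Of all these genes 1 passed a moderated t of 4 while 0 fell below -4, beside 1.13% and 0.693% of all expressed genes. That gene was Noa1, a GTPase needed to assemble the small subunit. It read 7.85, 7.74 and 7.71 in the disomic arrays and 8.10, 7.96 and 8.08 in the Ts1Cje arrays. The groups did not overlap, and M was 0.28 with a standard error of 0.06, a moderated t of 4.86 and an adjusted p of 1 in limma. Without disomic replicate 2, disomic replicate 3 or Ts1Cje replicate 1 the count above 4 was 0. Of the 17 expressed assembly factors, 9 had an M above 0. Nsun4, an rRNA methyltransferase, had an M of 0.15 and Gtpbp10, a GTPase of large subunit assembly, one of -0.38, both with overlapping groups.

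The proteins of the particle that carry other names resembled the named ones. Dap3, a GTP-binding small subunit protein, had an M of 0.11, Chchd1, also of the small subunit, 0.12, Ptcd3, a pentatricopeptide protein of the small subunit, 0.02 and Gadd45gip1, of the large subunit, 0.01, all 4 with overlapping groups. Mrpl58, a peptidyl-tRNA hydrolase built into the large subunit and also known as Ict1, had an M of -0.02 with a standard error of 0.06.

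Translation factors went both ways, with 6 of 9 above 0. Gfm2, the elongation factor that splits the ribosome for reuse, read 8.20, 7.98 and 7.67 in disomic and 7.67, 7.28 and 7.36 in Ts1Cje arrays. Disomic replicate 3 and Ts1Cje replicate 1 met at 7.67 to 2 decimals, without crossing, and M was -0.51 with a moderated t of -2.76 and an unadjusted p of 0.0465 in limma. The initiation factor Mtif3 had an M of 0.23 and the release factor Mtrf1l one of -0.17, with overlapping groups. Of the 13 expressed mitochondrial tRNA synthetases 8 were above 0. Hars2, which charges histidine tRNA, had an M of -0.26 with every Ts1Cje array below every disomic one, while Iars2 (0.19) and Lars2 (0.26), which charge isoleucine and leucine tRNA, overlapped.

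Mitochondrial transcription and mRNA upkeep had 6 of 9 genes above 0, with an M of 0.19 for Lrpprc and 0.16 for Slirp, which together hold mitochondrial mRNAs stable, and 0.19 for the transcription factor Tfb2m. Among the nuclear regulators of mitochondrial genes 2 of 8 were above 0, with a median M of -0.09. Nrf1 had an M of -0.08, Yy1 one of -0.09, the coactivator Ppargc1a one of 0.17 and Gabpa, an Ets factor of disomic chromosome 16, one of -0.20. None of the genes of these lists passed a moderated t of 4 in either direction.

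Nuclear genes for mitochondrial proteins are known for promoters with sites of Nrf1 and of Ets factors such as Gabpa. RefSeq windows of 250 bases before to 50 after the start were at hand for 67 of the 76 members, 73 windows in all. The Ets core CCGGAAG, on either strand, was in 25 of 73 windows (34.2%), beside 18.9% of the windows of expressed genes and 8.86% of all windows. The Nrf1 core GCATGCG was in 8 (11%), beside 7.02% and 3.58%, and the E-box CACGTG in 7 (9.59%), beside 10.3% and 7.15%. By gene the E-box was in 5 of 67, since the same Mrpl2 site lay in several overlapping windows. The Mrps6 window held none of the 3. A match is a string of letters and does not show a bound site.

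Stretches around the Ets core are shown for some of the members with values above, picked to cover low and high values of M. They are Mrps16 (M of 0.31), Mrps18c (-0.01), Mrpl48 (-0.23) and Mrpl18 (-0.25), and the 95% interval of M held 0 for each. M was not compared between members with and without the core. Each stretch is written along the strand of its gene in GRCm38.p6, with the core or its complement in capitals. They lie on chr14:20393541-20393581, chr5:100798586-100798626, chr7:100583141-100583181 and chr17:12916308-12916341. Those of Mrps16, Mrpl48 and Mrpl18 fall inside the RefSeq span of their gene, in the window of a start within it.
Mrps16: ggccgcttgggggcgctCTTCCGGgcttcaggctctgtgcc
Mrps18c: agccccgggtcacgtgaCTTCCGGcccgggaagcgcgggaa
Mrpl48: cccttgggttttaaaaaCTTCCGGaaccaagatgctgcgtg
Mrpl18: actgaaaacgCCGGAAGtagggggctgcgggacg

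One pair of members shares its upstream sequence. Mrps11, the homologue of bacterial S11 in the small subunit, and Mrpl46, a large subunit protein found only in mitochondria, run in opposite directions on chromosome 7 with 41 bases between their starts. The stretch chr7:78783070-78783150 is given on the plus strand, with those 41 bases in capitals.
Mrpl46 and Mrps11: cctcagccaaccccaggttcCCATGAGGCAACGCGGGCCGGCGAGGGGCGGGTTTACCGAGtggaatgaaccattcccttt

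Mrps11 read 5.66, 5.77 and 6.03 in the disomic and 6.01, 5.75 and 6.25 in the Ts1Cje arrays, with an M of 0.18 and a standard error of 0.17. Mrpl46 read 8.69, 8.52 and 8.48 against 8.77, 8.57 and 8.81, with an M of 0.15 and a standard error of 0.10. Both pairs of groups overlapped, and for both genes Ts1Cje replicate 3 was the highest array.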

How the data were processed

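The authors made the deposited log2 intensities per probe set from Affymetrix mouse genome arrays with GCRMA, per the labels (version not given in the sources used here), after 2-cycle labelling. The scale, from 2.23 to 15.89, was read from the values. All 6 arrays were used, and 0 columns were left unused. A genotype-only model was fitted with limma 3.58.1 in R 4.3.3 to all probe sets except controls, with moderated t, two-sided p-values and Benjamini-Hochberg adjustment over all probe sets, after it had been tested on simulated data. With 0.336 prior degrees of freedom, each probe set was judged almost wholly by its own spread, and 3 arrays a group limit the precision. Each gene was read from its brightest probe set that names it alone. Positions and promoter windows came from RefSeq (GRCm38.p6).

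Genes named were Mrps6, members past a moderated t of 4, the 6 highest and 6 lowest moderated t, the 4 highest and 4 lowest M, chromosome 16 members, S18 homologues, Mrps6 neighbours, other-named mitoribosome proteins and 3 genes of each other list by size of moderated t. Gabpa, Mrpl58, Mrps11, Mrpl46, Mrpl44 and Mrps14 were added after values were seen, as were the lists of complex I, complexes II to V (symbols beginning Sdh, Uqcr, Cox or Atp5) and cytoplasmic ribosomal proteins (Rpl, Rps). Members and lists were chosen with earlier results of these data known. Alternatives covered the replicate block, each array left out, normalization, variance prior, array weights, the expression threshold and the choice of probe set. Python 3.11.15 with pandas 2.3.3 made the tables and matplotlib 3.10.9 the plots.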

Additional observations from a re-analysis of the deposited data

How the results depend on the processing

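Mrps6 M stayed above 0 under every alternative run, from 0.58 without probe sets of the _x_at and _s_at types to 1.02 without disomic replicate 1, and its departure from the partners ranged from 0.49 to 0.90. Its adjusted p in limma was never under 0.05, and the lowest was 0.562, with the mean of expressed probe sets. Its moderated t fell below 4 in 7 alternatives, namely without disomic replicate 2 (3.23) or 3 (3.21), without Ts1Cje replicate 1 (3.62) or 3 (3.97), with the mean of expressed probe sets (3.78), without _x_at and _s_at probe sets (2.60) and with the replicate block (3.86). The count of members above a moderated t of 4 was 0 with the replicate block, with the mean of expressed probe sets and without _x_at and _s_at probe sets. With 1 array left out it was 0 to 2. It was 1 without Ts1Cje replicate 1, where Mrps6 itself was below 4, and 2 without disomic replicate 1. A disomic member thus passed 4 in each of these fits. Members with every Ts1Cje array above every disomic one numbered 1 under cyclic loess and under median centring and 2 to 14 with 1 array left out, where fewer arrays make a gap easier. Those below numbered 2 without _x_at and _s_at probe sets and 1 to 4 with 1 array left out. Members with an M above 0 numbered 34 to 59 with 1 array left out, the 34 without Ts1Cje replicate 3, and the median M of all expressed members, of the disomic Mrps genes and of the Mrpl genes ran from -0.01 to 0.14, from 0.000105 to 0.14 and from -0.01 to 0.14. Other mitochondrial translation genes above a moderated t of 4 numbered 0 with only expressed probe sets in the fit and with the mean of expressed probe sets, and 0 to 3 with 1 array left out. Below -4 there was 1 with the replicate block and 0 to 2 with 1 array left out. Shares over all expressed genes under these alternatives are not given here, so these counts cannot be set beside them. The cause of the shifts between settings was not tested. Arrays of the same number did not deviate together, with correlations of -0.17, -0.03 and 0.13. Between arrays of different number the correlations ran from -0.37 (Ts1Cje replicate 3 with disomic replicate 2) to 0.40 (Ts1Cje replicate 1 with disomic replicate 2). The cultures came from littermate pairs, but the labels do not tie the replicate number to a litter. Whether arrays of different number share a litter was not tested. With the replicate block M of Mrps6 stayed at 0.88, and the exact p of its departure, from sign changes of the 3 differences, was 0.25, the smallest that they allow. Of the 22 expressed members given with values, 5 changed the sign of M under some alternative, namely Mrpl39, Mrpl44, Mrpl58, Mrps18b and Mrps18c. Depth is not defined for arrays, and 43 of the 156 member probe sets were too dim to be called expressed.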
